A study of Lactuca sativa with 12 samples.

Results

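Lettuce plants that received selenium nanoparticles were compared with and without added cadmium, so that the 2 groups differ in cadmium alone. The CdSeNP group received cadmium and biosynthesised selenium nanoparticles together, at 10 and 3 mg/L in a hydroponic solution. The SeNP group received the nanoparticles alone at 3 mg/L. Both groups are lettuce (Lactuca sativa) of the cultivar Red oak-leaf, grown to the 6-leaf stage at 1.5 months, and whole leaves were sequenced after poly(A) selection. The labels name the cadmium once as the metal and once as a hydrated chloride salt, so the dose of the metal ion is uncertain. The genes described are all 884 that the authors called between these groups, out of 22862 they tested (3.87%) and out of 2264 genes called in any comparison of the series. Of the 12 libraries in the series 6 enter this comparison, 3 in each group, and no untreated library is among them. The other 6 are leaves with cadmium alone at 10 mg/L (Cd) and untreated leaves (CK), and they are used further on to set the cadmium effect with nanoparticles beside that without.

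Iron in leaves serves photosynthesis, respiration and superoxide removal, and its surplus is held in ferritin, a protein shell inside plastids. Plants short of iron raise a small family of bHLH transcription factors, reductases and transporters, and lower ferritin. Cadmium ions enter plants through transporters of iron, zinc and other metals. Copper has a similar economy. In Arabidopsis, an iron superoxide dismutase and copper-zinc superoxide dismutases take each other's place as copper supply changes.

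In CdSeNP leaves 741 genes were higher (3.24% of those tested) and 143 were lower (0.625%) than in SeNP leaves, at an adjusted p under 0.05 and more than a 2-fold change in the authors' deposited table (DESeq2). Higher genes therefore made up 83.8% of the list. The median log2 fold change was 1.36 among the higher genes and -1.30 among the lower ones, and 129 higher and 19 lower genes changed at least 4-fold (log2 of 2 or more). At 882 of the 884 genes, no library of one group overlapped a library of the other. The genes were called on these same libraries, which favours such a separation. The depth, recovered from the ratio of counts to FPKM, was 24.9, 23.8 and 28.6 M reads (M, reads in units of 1e+06) in CdSeNP 1 to CdSeNP 3, against 25.6, 28.7 and 23.3 M reads in SeNP 1 to SeNP 3. Replicates of a group were further apart than counting error allows, with a chi-square per degree of freedom of 3.88 to 6.60 between pairs. The libraries of a group also differed from each other in 1 direction over many genes: CdSeNP 1 was the highest of its group at 474 of the 741 higher genes, and SeNP 2 was the lowest of its group at 482 of them. Without CdSeNP 1 an edgeR refit called 669 genes higher and 126 lower, and without SeNP 2 it called 687 higher and 129 lower. Genes were grouped by words in their names into 39 lists, which took in 418 of the 884. The plot of called genes by list shows where the lists lean. Since 83.8% of all called genes were higher, a list with most of its called genes higher does not stand out by that alone.

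**Figure D1:**
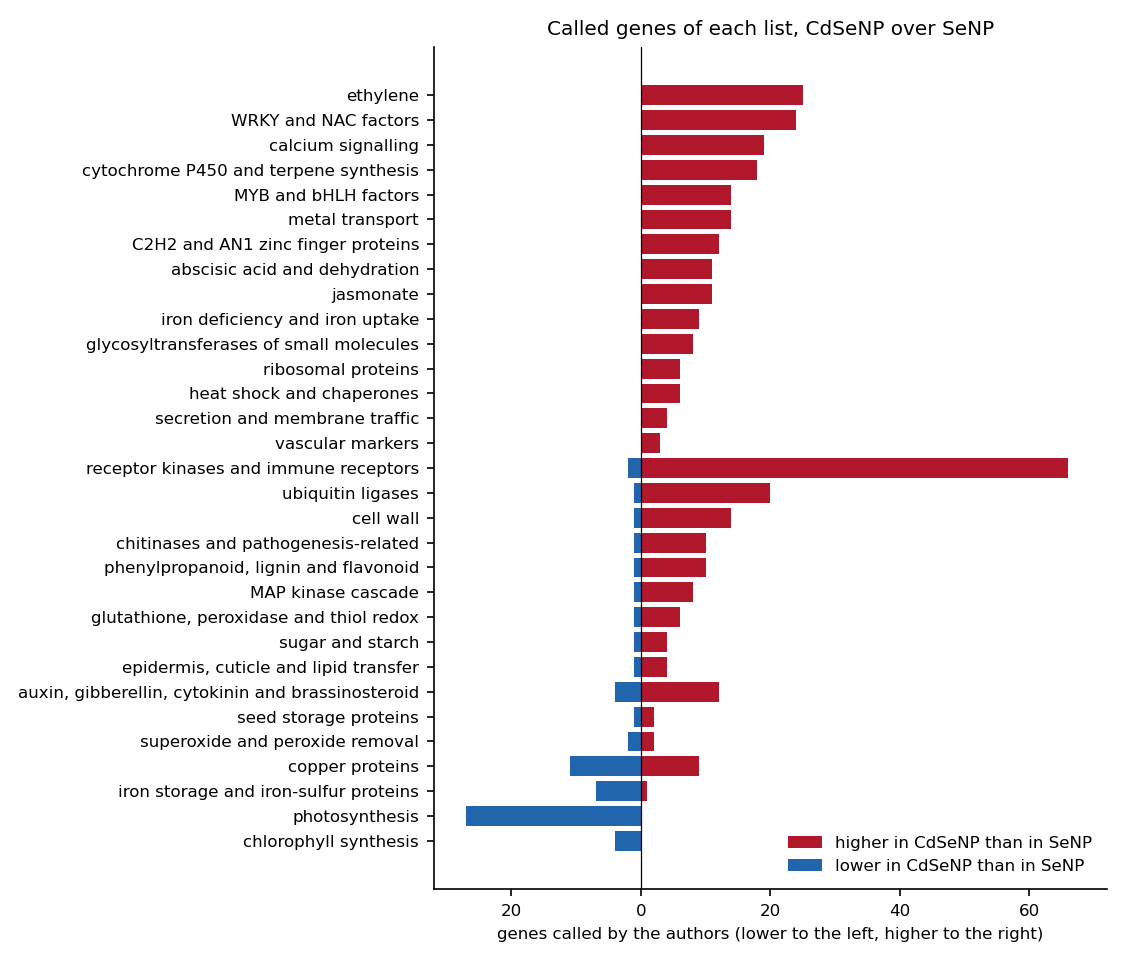
Number of genes that the authors called in each list with at least 3 called genes, with genes higher in CdSeNP than in SeNP leaves to the right of 0 and genes lower in CdSeNP leaves to the left. All 27 photosynthesis genes lie to the left, and 66 of 68 receptor kinases and immune receptors lie to the right.

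Genes that plants use to acquire iron were higher with cadmium, and 2 of them had no read in any SeNP library. All 9 called members of the iron deficiency and uptake list were higher in CdSeNP leaves, against 83.8% of all called genes. Their median log2 fold change was 3.36 in the authors' deposited table, against 1.27 over all 884 genes. The transcription factor ORG2, a bHLH protein of the group that iron shortage induces in Arabidopsis, was called at 3 genes on chromosome 5 (coordinates in the RefSeq assembly Lsat_Salinas_v11). At LOC111878349 (chromosome 5, between 325658829 and 325661149) the level was 12.9, 12.3 and 12 FPKM in the 3 CdSeNP libraries, and no read was counted in any SeNP library. LOC111878326 (chromosome 5, between 325822992 and 325825348) had 7.83, 9.51 and 8.98 FPKM in the CdSeNP libraries and also no read in SeNP leaves. Set against 3 counts for the whole SeNP group as the floor, these were at least 559-fold and at least 252-fold higher, with counting error alone covered. The remaining copy, LOC111878327, averaged 1.11 ± 0.0346 FPKM in CdSeNP leaves and 0.163 ± 0.0732 FPKM in SeNP leaves (SD, n = 3 each). Their neighbour bHLH100 (LOC111878325, chromosome 5, between 325991553 and 325993914), of the same group, had 8.66, 9.21 and 9.56 FPKM in CdSeNP libraries, against 0.132, 0.118 and 0.109 FPKM in SeNP libraries. Its log2 fold change was 6.20 (standard error 0.454, adjusted p = 1.2e-40) in the authors' deposited table (DESeq2). Reads that these similar neighbouring copies share could be split among them by the counting.

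The regulator bHLH47, known as POPEYE in Arabidopsis, restrains part of the iron response there. Here LOC111906812 (chromosome 4, between 397305291 and 397307042) had 21.5, 22.1 and 22 FPKM in CdSeNP libraries, against 2.12, 2.17 and 1.85 FPKM in SeNP libraries. Oligopeptide transporter 3, which loads iron into the phloem in Arabidopsis, was measured at a pair of genes. LOC111920790 (chromosome 7, between 16632456 and 16635576) had 51, 57.3 and 55.3 FPKM in CdSeNP libraries, against 7.06, 6.34 and 6.22 FPKM in SeNP libraries. Its log2 fold change was 3.02, and its adjusted p is listed as 0 (DESeq2, the authors' deposited table). The other gene, LOC111905484, had 44.5, 44.2 and 44.6 FPKM in CdSeNP libraries, against 21.7, 21.2 and 21.5 FPKM in SeNP libraries, which is a log2 fold change of 1.003 in the authors' deposited table, just past the threshold of 1. Its call ended without CdSeNP 3 or without SeNP 3, at log2 fold changes of 0.991 and 0.979 in edgeR refits. Among the reductases that turn ferric into ferrous iron, ferric reduction oxidase 2 (LOC111894637) averaged 0.877 ± 0.114 FPKM in CdSeNP leaves and 0.146 ± 0.0619 FPKM in SeNP leaves, and a gene like ferric reduction oxidase 7 (LOC128129550) averaged 0.761 ± 0.12 FPKM in CdSeNP leaves and 0.0486 ± 0.0335 FPKM in SeNP leaves. Both reductases stayed under 1 FPKM in both groups.

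Iron storage went the other way. Of 8 called genes for iron storage and iron-sulfur proteins, 7 were lower in CdSeNP leaves and 1 was higher, and the list's median log2 fold change was -1.96 in the authors' deposited table. Ferritin fell at 3 genes. Ferritin-4 at LOC111919692 (chromosome 8, between 17057042 and 17059052) had 4.94, 4.59 and 5.0 FPKM in CdSeNP libraries, against 79.5, 82.5 and 87.3 FPKM in SeNP libraries. This was the largest decrease among genes with a description and at least 5 FPKM, at a log2 fold change of -4.14 in the authors' deposited table (DESeq2, adjusted p listed as 0). The ferritin gene LOC111908574 had 38.7, 32 and 32 FPKM in CdSeNP libraries, against 175, 183 and 196 FPKM in SeNP libraries, and the second ferritin-4 gene, LOC111879873, had 41.3, 39.9 and 40.7 FPKM in CdSeNP libraries, against 130.0, 131 and 134 FPKM in SeNP libraries. In all 3 the SeNP libraries lay well above every CdSeNP library. NEET (LOC111903255), a plastid and mitochondrial iron-sulfur protein in Arabidopsis, had 1.46, 1.66 and 1.64 FPKM in CdSeNP libraries, against 10.3, 9.64 and 9.7 FPKM in SeNP libraries. An iron-sulfur subunit of succinate dehydrogenase (LOC111908866), a respiratory enzyme, averaged 3.13 ± 0.31 FPKM in CdSeNP leaves and 9.97 ± 0.977 FPKM in SeNP leaves. Plastidial pyruvate kinase 4 (LOC111888822), a gene outside the list, averaged 1.66 ± 0.187 FPKM in CdSeNP leaves and 8.69 ± 0.182 FPKM in SeNP leaves and was also among the 8 largest decreases.

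Vacuolar iron transporters, which move iron into the vacuole, did not change alike. Homolog 2 (LOC111907774) averaged 4.28 ± 0.395 FPKM in CdSeNP leaves and 8.78 ± 1.5 FPKM in SeNP leaves. A pair of genes named homolog 4 lies on chromosome 5, and its members went opposite ways. LOC111899495 had 3.93, 4.27 and 6.52 FPKM in CdSeNP libraries, against 1.31, 1.63 and 2.12 FPKM in SeNP libraries. LOC111899502 had 0.327, 0.342 and 0.569 FPKM in CdSeNP libraries, against 2.22, 0.993 and 2.27 FPKM in SeNP libraries. The call of homolog 2 ended without CdSeNP 2 or without SeNP 1 (log2 fold changes of -0.990 and -0.984 in edgeR refits). Whole leaves were sequenced, so fewer cells of a type and less RNA per cell cannot be told apart in any of these values.

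**Figure D2:**
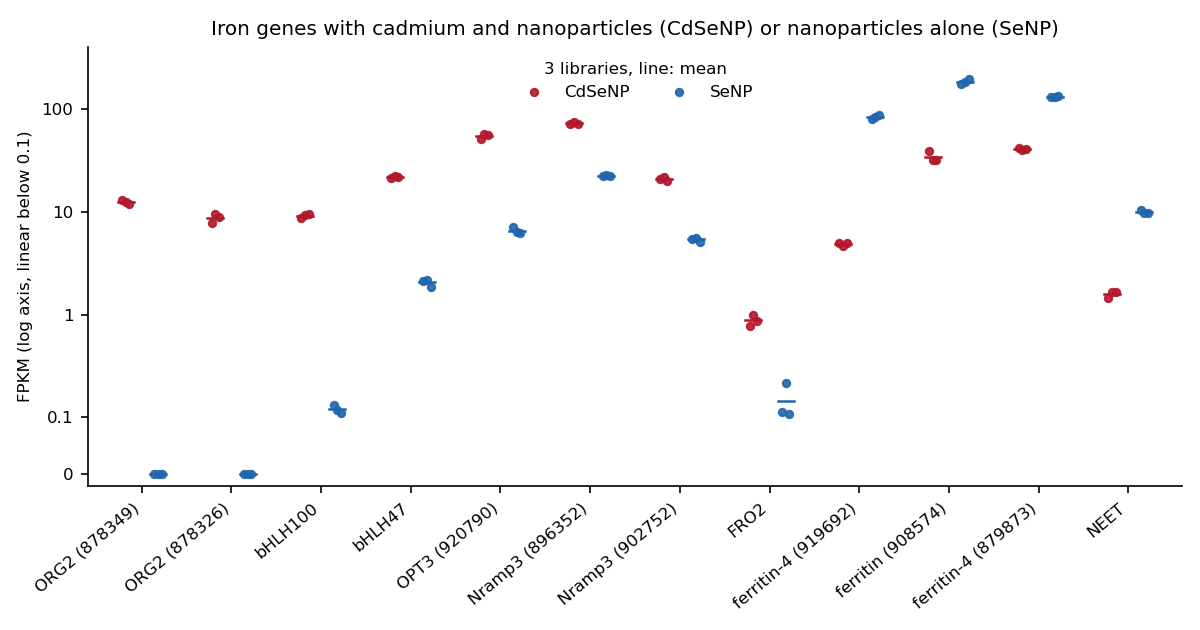
FPKM (log axis, linear below 0.1) of 12 iron and metal genes in each CdSeNP library (red, left of each pair) and SeNP library (blue, right), with lines at the group means. The first 8 genes are higher in CdSeNP leaves, with both ORG2 genes at 0 in SeNP leaves, and the 3 ferritin genes and NEET are lower.

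The metal transport list, which holds 7 transporters and 7 metal-binding proteins, was higher in CdSeNP leaves at all 14 called genes, with a median log2 fold change of 1.42 in the authors' deposited table. The vacuolar iron transporter homologs described above stand on the iron storage list, and 2 of those 3 fell. Nramp3, which releases iron and other metals from the vacuole in Arabidopsis, had 71.2, 74.9 and 71.3 FPKM in CdSeNP libraries, against 22.4, 23 and 22 FPKM in SeNP libraries at LOC111896352. The second Nramp3 gene, LOC111902752, had 20.6, 21.7 and 19.9 FPKM in CdSeNP libraries, against 5.47, 5.58 and 5.07 FPKM in SeNP libraries. Their log2 fold changes were 1.64 and 1.90, with adjusted p = 4.8e-182 and 4.4e-100, in the authors' deposited table (DESeq2). Zinc transporter 1 (LOC111880346) had 13.5, 11 and 9.82 FPKM in CdSeNP libraries, against 1.78, 1.5 and 2.23 FPKM in SeNP libraries. Copper transporter 5 (LOC111893192) had 133, 134 and 127 FPKM in CdSeNP libraries, against 48.1, 39 and 54.3 FPKM in SeNP libraries, and the groups lay far apart. Zinc transporter 5 was called at a pair of weakly expressed genes, with means of 0.949 ± 0.113 FPKM in CdSeNP leaves and 0.127 ± 0.0643 FPKM in SeNP leaves at LOC111893633 and of 1.25 ± 0.371 FPKM in CdSeNP leaves and 0.25 ± 0.0733 FPKM in SeNP leaves at LOC111901856. YSL3 (LOC111876026), which carries metals bound to the chelator nicotianamine, averaged 6.6 ± 0.385 FPKM in CdSeNP leaves and 3.09 ± 0.249 FPKM in SeNP leaves. Its call ended without CdSeNP 3 or without SeNP 1 (log2 fold changes of 0.992 and 0.987 in edgeR refits). Nicotianamine synthase (LOC111878037), the enzyme that makes that chelator, averaged 1.89 ± 0.245 FPKM in CdSeNP leaves and 0.54 ± 0.225 FPKM in SeNP leaves. The 7 remaining members of the list are heavy metal-associated isoprenylated plant proteins, small proteins with a metal-binding domain, and the most abundant of them (LOC111881395) averaged 194 ± 8.85 FPKM in CdSeNP leaves and 85.8 ± 12.6 FPKM in SeNP leaves. Next in abundance was LOC122194435 at 177 ± 15 FPKM in CdSeNP leaves against 72.8 ± 9.41 in SeNP leaves, and LOC111914618 averaged 40.8 ± 3.6 FPKM in CdSeNP leaves and 14.3 ± 2.61 FPKM in SeNP leaves. No gene whose name matched the words for sulfur or selenium assimilation was called.

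Superoxide dismutases changed in opposite directions with the metal they carry. The chloroplast iron enzyme (LOC111905867, chromosome 8, between 15473345 and 15483628) had 131, 133 and 124 FPKM in CdSeNP libraries, against 23.4, 17.7 and 19 FPKM in SeNP libraries. On the log2 scale it was 2.65 ± 0.080 (standard error) higher, with adjusted p = 8.3e-237 in DESeq2, per the authors' deposited table. The copper-zinc enzyme at LOC111882980 had 95, 100.7 and 108 FPKM in CdSeNP libraries, against 209, 229 and 256 FPKM in SeNP libraries, and that at LOC111897744, of the chloroplast, had 238, 256 and 260.3 FPKM in CdSeNP libraries, against 493, 515 and 466 FPKM in SeNP libraries. The fall at LOC111897744 sits on the 2-fold threshold. Its call ended with library totals as the scaling, without CdSeNP 1 and without SeNP 2, at log2 fold changes of -0.966, -0.973 and -0.951 in edgeR refits. Ubiquinol oxidase 2 (LOC111897513), an alternative oxidase of mitochondria that lowers superoxide formation, averaged 16.2 ± 0.637 FPKM in CdSeNP leaves and 5.09 ± 0.184 FPKM in SeNP leaves.

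Copper proteins changed in both directions. Of 20 called, 9 were higher and 11 lower in CdSeNP leaves. A plastocyanin-like protein (LOC111903875), by its name akin to the copper protein that carries electrons to photosystem I, had 541, 532 and 519 FPKM in CdSeNP libraries, against 1285, 1238 and 1211 FPKM in SeNP libraries. Polyphenol oxidase I (LOC111905063), a copper enzyme of leaf browning, had 119, 134 and 141 FPKM in CdSeNP libraries, against 308, 341 and 310.4 FPKM in SeNP libraries, and basic blue protein (LOC111904155), a small secreted copper protein, had 24.2, 29.3 and 27.4 FPKM in CdSeNP libraries, against 72.7, 83.8 and 64.7 FPKM in SeNP libraries. Laccases, copper oxidases that polymerise lignin, were lower at 6 genes and higher at 1, with LOC111916163 (laccase-11) at 2.22 ± 0.203 FPKM in CdSeNP leaves against 5.99 ± 0.318 in SeNP leaves. Cucumber peeling cupredoxins, which bind copper at a similar site, rose at all 6 called genes. These lie on chromosome 5, and LOC111881841, the most abundant, had 182, 175 and 162 FPKM in CdSeNP libraries, against 77, 65.2 and 79.7 FPKM in SeNP libraries. Ascorbate oxidases, copper enzymes of the cell wall, went both ways. The homolog LOC111914968 averaged 22.6 ± 1.51 FPKM in CdSeNP leaves and 8.59 ± 0.808 FPKM in SeNP leaves, and LOC111884547 averaged 0.244 ± 0.114 FPKM in CdSeNP leaves and 0.671 ± 0.0902 FPKM in SeNP leaves. LOC111906023 is named squamosa promoter-binding-like protein 7, which in Arabidopsis switches on the genes of copper shortage, and it averaged 2.63 ± 0.196 FPKM in CdSeNP leaves and 5.63 ± 0.349 FPKM in SeNP leaves.

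The same genes can be read in the leaves without nanoparticles, where libraries of Cd and CK hold them. The iron superoxide dismutase averaged 132 ± 8.36 FPKM in Cd leaves and 139 ± 0.0899 FPKM in CK leaves. Copper transporter 5 averaged 125 ± 8.53 FPKM in Cd leaves and 149 ± 10.3 FPKM in CK leaves, and zinc transporter 1 averaged 10.1 ± 1.03 FPKM in Cd leaves and 18.3 ± 0.936 FPKM in CK leaves. For these 3 genes the SeNP libraries were the low ones among all 12, as the plot of metalloenzyme genes in 4 groups shows. The copper-zinc enzyme LOC111882980 averaged 117 ± 9.07 FPKM in Cd leaves and 79.1 ± 8.25 FPKM in CK leaves and polyphenol oxidase I averaged 168 ± 17.1 FPKM in Cd leaves and 90.2 ± 21.6 FPKM in CK leaves, so that here the SeNP libraries were the high ones.

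**Figure D3:**
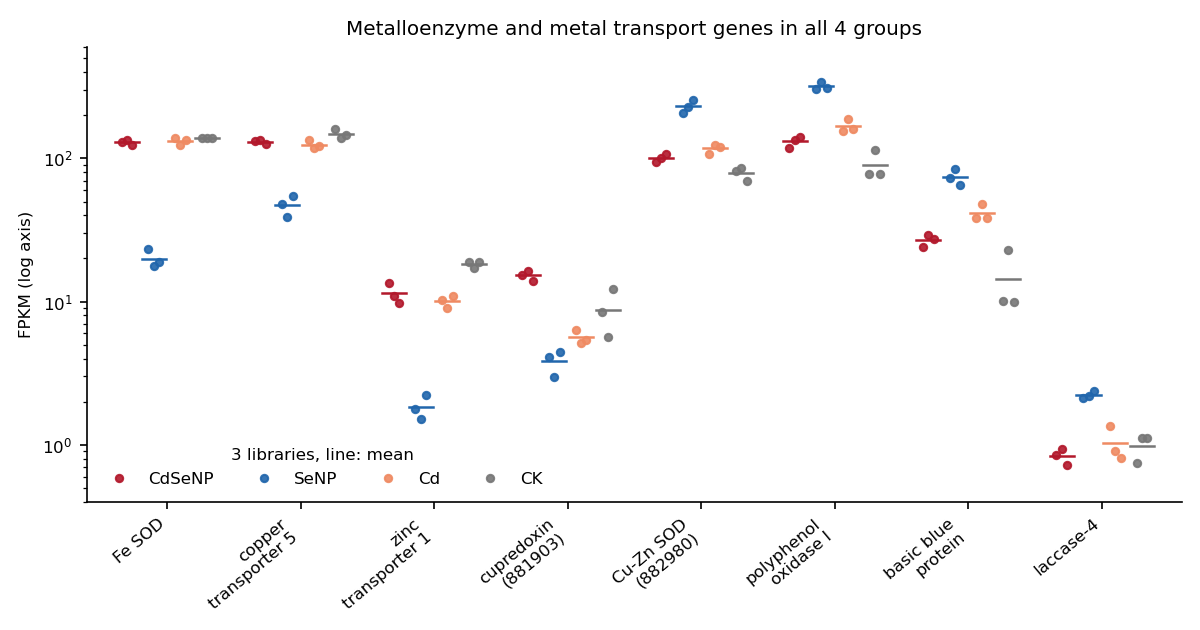
FPKM (log axis) of 8 metalloenzyme and metal transport genes in each library, in the order CdSeNP, SeNP, Cd and CK within each gene, with lines at the group means. The SeNP libraries are the lowest of the 4 groups at the iron superoxide dismutase, copper transporter 5, zinc transporter 1 and the cupredoxin LOC111881903, and the highest at the other 4 genes.

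Photosynthesis genes were lower in CdSeNP leaves without exception among those called. All 27 fell, with a median log2 fold change of -1.44 in the authors' deposited table. Most encode chlorophyll a-b binding proteins, the antennae that pass light energy to the photosystems. LHCII type 1 at LOC111895045 (chromosome 1, between 134932729 and 134933678) had 39.4, 38.7 and 38.6 FPKM in CdSeNP libraries, against 374, 340.1 and 349.5 FPKM in SeNP libraries. Its log2 fold change of -3.23 in the authors' deposited table (DESeq2, adjusted p listed as 0) was the largest of the list. A further LHCII type 1 gene, LOC111921754, had 112, 111 and 103 FPKM in CdSeNP libraries, against 567, 539 and 549 FPKM in SeNP libraries. Chlorophyll a-b binding protein 5 had 142, 128 and 127 FPKM in CdSeNP libraries, against 627, 583 and 539.8 FPKM in SeNP libraries at LOC111895560, and averaged 12.3 ± 0.569 FPKM in CdSeNP leaves and 65 ± 5.83 FPKM in SeNP leaves at LOC111895558. Chlorophyll a-b binding protein 13 (LOC111904852) averaged 361 ± 5.66 FPKM in CdSeNP leaves and 1125 ± 18 FPKM in SeNP leaves, and LHCII type 1 at LOC111914736 averaged 265 ± 5.34 FPKM in CdSeNP leaves and 753 ± 18.6 FPKM in SeNP leaves. The minor antenna protein CP24 10A (LOC111899517) had 314, 315 and 306 FPKM in CdSeNP libraries, against 1000.1, 968 and 982 FPKM in SeNP libraries. Among subunits of photosystem I, subunit III (LOC111898563) averaged 1409 ± 69.7 FPKM in CdSeNP leaves and 3704 ± 18.4 FPKM in SeNP leaves, and subunit N (LOC111904178) averaged 1408 ± 21.6 FPKM in CdSeNP leaves and 3544 ± 75.6 FPKM in SeNP leaves. Transcripts of the photosystems at such levels are those of green tissue. Oxygen-evolving enhancer protein 1 of photosystem II (LOC111876697) averaged 125 ± 8.34 FPKM in CdSeNP leaves and 270.0 ± 15.5 FPKM in SeNP leaves. A small subunit of Rubisco, the carbon-fixing enzyme, was called at 1 weakly expressed gene (LOC111908253), which averaged 7.85 ± 0.568 FPKM in CdSeNP leaves and 19.9 ± 2.05 FPKM in SeNP leaves.

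Enzymes of chlorophyll synthesis fell with them, at all 4 called genes. Glutamyl-tRNA reductase 1 (LOC111877439), which starts the pathway, had 187, 191 and 192 FPKM in CdSeNP libraries, against 467, 465 and 475 FPKM in SeNP libraries. Subunit ChlH of magnesium chelatase (LOC111879365), which inserts magnesium into the ring, averaged 20.7 ± 0.639 FPKM in CdSeNP leaves and 43.8 ± 1.43 FPKM in SeNP leaves. The cyclase that forms the additional ring (LOC111879482), an iron enzyme, averaged 469 ± 9.0 FPKM in CdSeNP leaves and 963 ± 22.3 FPKM in SeNP leaves. Geranylgeranyl diphosphate reductase (LOC111909735), which makes the phytol tail, averaged 434 ± 22.9 FPKM in CdSeNP leaves and 1075 ± 25.2 FPKM in SeNP leaves. Outside the lists, the plastid sigma factor sigA (LOC111892130), which directs the plastid RNA polymerase, averaged 46.8 ± 0.517 FPKM in CdSeNP leaves and 106 ± 3.06 FPKM in SeNP leaves, and carbonic anhydrase 1 (LOC111920498), which hydrates carbon dioxide, averaged 156 ± 10.8 FPKM in CdSeNP leaves and 346 ± 19.2 FPKM in SeNP leaves. Phytoene synthase 2 (LOC111916034), the entry enzyme of carotenoid synthesis, averaged 17.3 ± 0.342 FPKM in CdSeNP leaves and 35.5 ± 0.764 FPKM in SeNP leaves.

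Other genes stood out by the size of their increase. EPIDERMAL PATTERNING FACTOR-like protein 1 (LOC111910137, chromosome 5, between 291153223 and 291155217), of a family of secreted peptides that pattern plant tissues, had 15.7, 16.4 and 16.1 FPKM in the CdSeNP libraries and no read in SeNP leaves, which was at least 738-fold higher. Oleosin L (LOC111905845), a coat protein of oil bodies, had 37.2, 40.1 and 37 FPKM in CdSeNP libraries, against 1.12, 0.802 and 0.863 FPKM in SeNP libraries. A vicilin-like seed storage protein (LOC111919377) averaged 17 ± 1.11 FPKM in CdSeNP leaves and 0.58 ± 0.187 FPKM in SeNP leaves, whereas the vicilin gene LOC111921670 fell and averaged 34.3 ± 2.87 FPKM in CdSeNP leaves and 82.8 ± 7.71 FPKM in SeNP leaves. The F-box protein PP2-B15 (LOC111905931) had 18.7, 18.5 and 18.8 FPKM in CdSeNP libraries, against 1.11, 1.22 and 1.93 FPKM in SeNP libraries. The chloroplast chaperone dnaJ C76 (LOC111886184) averaged 109 ± 4.02 FPKM in CdSeNP leaves and 11.3 ± 0.414 FPKM in SeNP leaves, and plastid-lipid-associated protein 14 (LOC111900455) averaged 145 ± 6.47 FPKM in CdSeNP leaves and 11.3 ± 0.66 FPKM in SeNP leaves. Diacylglycerol O-acyltransferase 3 (LOC111914211), which joins fatty acids into storage oil, averaged 562 ± 18.7 FPKM in CdSeNP leaves and 137 ± 3.29 FPKM in SeNP leaves, and SRC2 (LOC111916010), a protein with a C2 domain, averaged 116 ± 8.41 FPKM in CdSeNP leaves and 24.9 ± 3.07 FPKM in SeNP leaves. Each of these genes passed the test in the authors' deposited table.

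Calcium and hormone genes were higher at most called members, against 83.8% of all called genes. All 19 called calcium signalling genes were higher in CdSeNP leaves, with a median log2 fold change of 1.341 in the authors' deposited table. The calmodulin-like protein CML38 (LOC111877562) had 81.5, 81.5 and 72.5 FPKM in CdSeNP libraries, against 15, 15.7 and 17.1 FPKM in SeNP libraries, with a log2 fold change of 2.26 (DESeq2 in the authors' deposited table, adjusted p = 6.0e-150). CP1 (LOC111914173) averaged 68.9 ± 3.49 FPKM in CdSeNP leaves and 11.9 ± 1.343 FPKM in SeNP leaves and CML39 (LOC111892932) averaged 84.1 ± 6.09 FPKM in CdSeNP leaves and 21.9 ± 1.01 FPKM in SeNP leaves. All 25 called genes of the ethylene list were higher too, and 24 of the 884 genes carry the AP2/ERF label in the authors' column of transcription factor families. These factors bind promoters of stress genes, and many are induced by ethylene. By name, the ethylene list holds ethylene-responsive and dehydration-responsive factors and a homolog of 1-aminocyclopropane-1-carboxylate oxidase, an enzyme of ethylene synthesis. Its rise is therefore no measure of an ethylene response. ERF109 (LOC111903160) had 118, 112 and 110.1 FPKM in CdSeNP libraries, against 24.7, 21.5 and 27.1 FPKM in SeNP libraries, and the second ERF109 gene, LOC111877684, averaged 104 ± 7.21 FPKM in CdSeNP leaves and 23.5 ± 3.26 FPKM in SeNP leaves. The dehydration-responsive factor DREB1D (LOC111901693) averaged 78.6 ± 5.07 FPKM in CdSeNP leaves and 17.9 ± 2.49 FPKM in SeNP leaves.

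Where 83.8% of all called genes were higher, jasmonate genes rose at all 11 called members. Their median log2 fold change was 1.77 in the authors' deposited table. They span synthesis, by chloroplast lipoxygenase 1 (LOC111921376, 70.8 ± 6.0 FPKM in CdSeNP leaves against 19.4 ± 2.34 in SeNP leaves), repression of the response, by TIFY 10A (LOC111882352, 49.2 ± 3.13 FPKM in CdSeNP leaves against 11.1 ± 1.6 in SeNP leaves) and TIFY 9 (LOC111912330, 85 ± 7.33 FPKM in CdSeNP leaves against 24.2 ± 2.28 in SeNP leaves), and breakdown of the hormone. In that last role, cytochrome P450 94B3 (LOC111920155) had 5.27, 5.58 and 4.6 FPKM in CdSeNP libraries, against 0.371, 0.498 and 0.272 FPKM in SeNP libraries, and cytochrome P450 94C1 (LOC111905399) averaged 20.1 ± 0.765 FPKM in CdSeNP leaves and 6.35 ± 0.0621 FPKM in SeNP leaves. On the abscisic acid and dehydration list all 11 called genes were higher. Protein phosphatases 2C entered this list by name, whether or not they act on abscisic acid. Protein phosphatase 2C 25 (LOC111905914) averaged 31.1 ± 2.8 FPKM in CdSeNP leaves and 6.14 ± 0.889 FPKM in SeNP leaves, and protein phosphatase 2C 63 (LOC111877213) averaged 138 ± 11.7 FPKM in CdSeNP leaves and 46.2 ± 4.79 FPKM in SeNP leaves. The dehydrin Rab18 (LOC111913327), a protein that accumulates in drying tissue, had 66, 48.3 and 64 FPKM in CdSeNP libraries, against 6.31, 5.93 and 4.05 FPKM in SeNP libraries, and CdSeNP 2 was the lowest of its group. On the list of auxin, gibberellin, cytokinin and brassinosteroid 12 genes were higher and 4 lower. Gibberellin 2-beta-dioxygenase 1 (LOC111914174), which inactivates gibberellins, averaged 113 ± 10.2 FPKM in CdSeNP leaves and 24.3 ± 2.99 FPKM in SeNP leaves, and cytokinin dehydrogenase 5 (LOC111915756), which breaks down cytokinins, averaged 14 ± 1.27 FPKM in CdSeNP leaves and 4.98 ± 0.912 FPKM in SeNP leaves. The chitin-inducible gibberellin-responsive protein 1 (LOC111901011), a GRAS factor, averaged 79.1 ± 5.16 FPKM in CdSeNP leaves and 18.6 ± 1.96 FPKM in SeNP leaves.

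Most other regulators moved the same way, as did 83.8% of all called genes. On the lists made by name, all 24 called WRKY and NAC factors and all 12 C2H2 and AN1 zinc finger proteins were higher. So were all 14 MYB and bHLH factors, with the 5 iron regulators above among them. The authors' column of transcription factor families also holds members that fell. It labels 8 called genes bHLH, 6 higher and 2 lower, and 11 called genes C2H2, 10 higher and 1 lower. WRKY31 (LOC111891013) had 16.6, 14 and 13.7 FPKM in CdSeNP libraries, against 2.98, 2.01 and 2.11 FPKM in SeNP libraries, and the more abundant WRKY40 (LOC111892261) averaged 194 ± 12.4 FPKM in CdSeNP leaves and 73.9 ± 6.68 FPKM in SeNP leaves. WRKY26 (LOC111917576) averaged 131 ± 10.6 FPKM in CdSeNP leaves and 49.3 ± 3.15 FPKM in SeNP leaves. ZAT10 (LOC111920562) averaged 141 ± 5.82 FPKM in CdSeNP leaves and 52.8 ± 4.27 FPKM in SeNP leaves and ZAT12 (LOC111912253) averaged 155 ± 12.3 FPKM in CdSeNP leaves and 55.5 ± 6.13 FPKM in SeNP leaves, both of them zinc finger proteins that many stresses induce in Arabidopsis. The stress-associated protein 16 (LOC111879395) averaged 79 ± 5.24 FPKM in CdSeNP leaves and 30.1 ± 1.81 FPKM in SeNP leaves. MYB17 (LOC111912895) averaged 23.7 ± 2.61 FPKM in CdSeNP leaves and 4.62 ± 0.692 FPKM in SeNP leaves and MYB14 (LOC111881326) averaged 21.2 ± 1.98 FPKM in CdSeNP leaves and 6.79 ± 0.591 FPKM in SeNP leaves. In the mitogen-activated protein kinase cascade, which relays stress signals, 8 genes were higher and 1 was lower. Kinase kinase kinase 20 (LOC111879169) averaged 81.6 ± 4.88 FPKM in CdSeNP leaves and 18.8 ± 1.51 FPKM in SeNP leaves, kinase kinase kinase 5 (LOC111919178) 8.4 ± 0.872 FPKM in CdSeNP leaves against 3.48 ± 0.149 in SeNP leaves, and kinase 3 (LOC111882588) 79.8 ± 7.23 FPKM in CdSeNP leaves against 35.2 ± 3.71 in SeNP leaves. Of 21 ubiquitin ligases, which mark proteins for breakdown, 20 were higher, among them ATL6 (LOC111879908) at 88.9 ± 4.59 FPKM in CdSeNP leaves against 38.1 ± 2.27 in SeNP leaves, RMA1H1 (LOC111905635) at 112 ± 11.3 FPKM in CdSeNP leaves against 48.7 ± 2.91 in SeNP leaves and PUB23 (LOC111916638) at 45.8 ± 2.07 FPKM in CdSeNP leaves against 20.6 ± 1.15 in SeNP leaves.

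**Figure D4:**
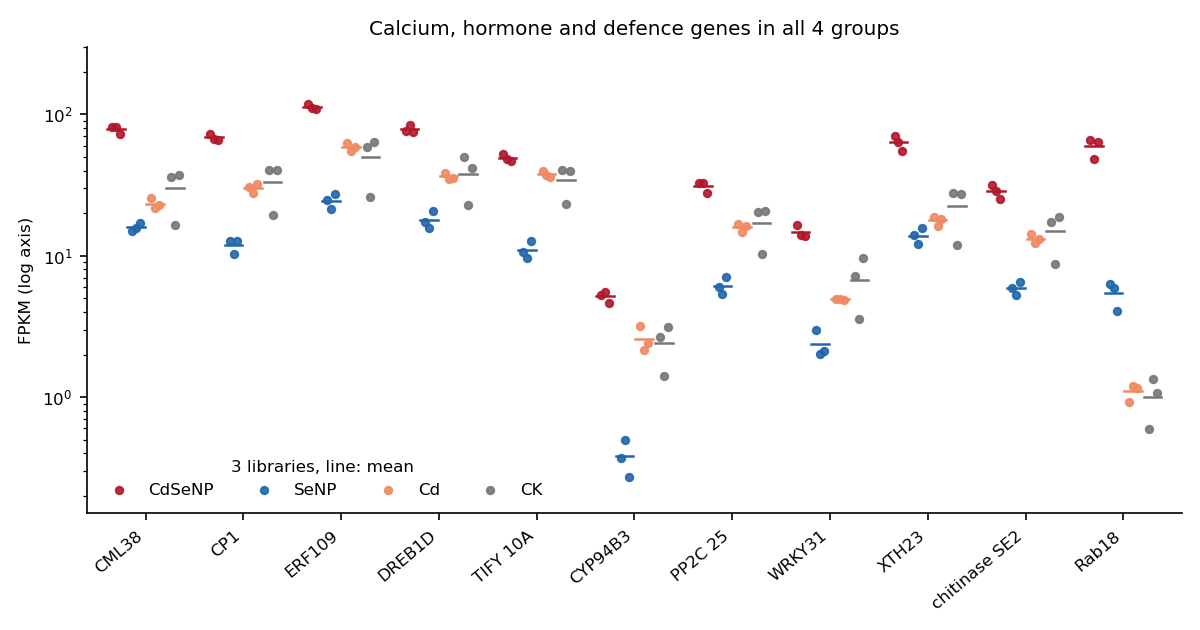
FPKM (log axis) of 11 calcium, hormone and defence genes in each library, in the order CdSeNP, SeNP, Cd and CK within each gene, with lines at the group means. The CdSeNP mean is the highest at all 11 genes. The SeNP mean is below the Cd and CK means at 10 of them, and above both at Rab18.

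Genes of defence followed, where 83.8% of all called genes were higher. Of 68 called receptor kinases and immune receptors, 66 were higher and 2 lower, with a median log2 fold change of 1.26, close to the 1.27 of all 884 genes in the authors' deposited table. The kinase RIPK (LOC111894238), an immune kinase in Arabidopsis, averaged 148 ± 11.7 FPKM in CdSeNP leaves and 46.8 ± 3.96 FPKM in SeNP leaves, and the kinase-like protein CCR4 (LOC111913492) averaged 18 ± 1.16 FPKM in CdSeNP leaves and 3.97 ± 0.526 FPKM in SeNP leaves. The resistance protein RGA5 (LOC111914927) averaged 114 ± 8.0 FPKM in CdSeNP leaves and 35.3 ± 1.98 FPKM in SeNP leaves. 1 of the 2 that fell, a leucine-rich repeat receptor kinase (LOC111912695), had 0.175, 0.142 and 0.152 FPKM in CdSeNP libraries, against 1.91, 1.37 and 1.21 FPKM in SeNP libraries. Chitinases and other pathogenesis-related genes were higher at 10 of 11, and the call of the lower one ended without CdSeNP 1, CdSeNP 2, SeNP 1 or SeNP 2. Acidic endochitinase SE2 (LOC111888833) averaged 28.6 ± 3.13 FPKM in CdSeNP leaves and 5.93 ± 0.629 FPKM in SeNP leaves, endochitinase EP3 (LOC111901424) 41.6 ± 2.29 FPKM in CdSeNP leaves against 12.6 ± 1.87 in SeNP leaves, and glucan endo-1,3-beta-glucosidase 14 (LOC111917502) 16.2 ± 1.18 FPKM in CdSeNP leaves against 4.82 ± 0.278 in SeNP leaves. Syntaxin-121, which guides vesicles to the cell surface, was called at a pair of genes and had 16, 16.5 and 14.4 FPKM in CdSeNP libraries, against 3.0, 2.21 and 3.43 FPKM in SeNP libraries at LOC111898570. Its other gene (LOC111916634) averaged 115 ± 10.1 FPKM in CdSeNP leaves and 52.2 ± 3.49 FPKM in SeNP leaves, and the exocyst subunit EXO70H1 (LOC111911714), which tethers such vesicles, averaged 11.8 ± 0.522 FPKM in CdSeNP leaves and 3.11 ± 0.22 FPKM in SeNP leaves.

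Cell wall genes were higher at 14 of 15 called members, against 83.8% of all called genes. Xyloglucan endotransglucosylase 23, which cuts and rejoins wall xyloglucan, was called at 6 genes, all of them higher, and had 70.8, 64.3 and 55.4 FPKM in CdSeNP libraries, against 14, 12.1 and 15.6 FPKM in SeNP libraries at LOC111909622. LOC111909625 averaged 58.6 ± 4.71 FPKM in CdSeNP leaves and 14.3 ± 2.07 FPKM in SeNP leaves, and reads of these neighbouring copies may be shared. Cellulose synthase-like protein D3 (LOC111884162) averaged 41.5 ± 2.17 FPKM in CdSeNP leaves and 16.2 ± 0.992 FPKM in SeNP leaves. In phenylpropanoid metabolism 10 genes were higher and 1 lower. Phenylalanine ammonia-lyase (LOC111916376), which opens the pathway, averaged 37.9 ± 2.79 FPKM in CdSeNP leaves and 13.7 ± 0.732 FPKM in SeNP leaves, and cinnamoyl-CoA reductase 1 (LOC111889537), on the lignin branch, averaged 11.7 ± 1.19 FPKM in CdSeNP leaves and 3.31 ± 0.127 FPKM in SeNP leaves. The member that fell was dihydroflavonol 4-reductase (LOC111897350), an enzyme of anthocyanin synthesis, which averaged 49.9 ± 4.05 FPKM in CdSeNP leaves and 97.2 ± 4.55 FPKM in SeNP leaves. Its call ended with library totals, without CdSeNP 3 and without SeNP 2, at log2 fold changes of -0.961, -0.951 and -0.953 in edgeR refits. All 18 called cytochromes P450 and terpene enzymes were higher, with CYP72A219 (LOC111916050) at 38.9 ± 4.69 FPKM in CdSeNP leaves against 14.1 ± 1.23 in SeNP leaves, 81Q32 (LOC111889120) at 2.65 ± 0.725 FPKM in CdSeNP leaves against 0.396 ± 0.0296 in SeNP leaves, and germacrene A hydroxylase (LOC111881472), of sesquiterpene lactone synthesis in lettuce, at 1.23 ± 0.0932 FPKM in CdSeNP leaves against 0.298 ± 0.0307 in SeNP leaves. UDP-glycosyltransferases rose at all 8 called genes, with 74G1 (LOC111900864) at 41.9 ± 3.77 FPKM in CdSeNP leaves against 10.3 ± 1.06 in SeNP leaves, 71E1 (LOC111919436) at 29.8 ± 0.652 FPKM in CdSeNP leaves against 8.82 ± 0.512 in SeNP leaves and 85C1 (LOC111917379) at 62.3 ± 3.64 FPKM in CdSeNP leaves against 26.1 ± 1.39 in SeNP leaves.

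Smaller lists held few called genes, and their shares of higher genes stand beside 83.8% of all called genes. Glutathione and thiol genes were higher at 6 of 7: a phospholipid hydroperoxide glutathione peroxidase (LOC111920824) averaged 53.3 ± 2.69 FPKM in CdSeNP leaves and 24.6 ± 1.94 FPKM in SeNP leaves, and glutaredoxin-C9 (LOC111894537) averaged 83.4 ± 4.17 FPKM in CdSeNP leaves and 39.8 ± 3.95 FPKM in SeNP leaves, whose call ended without CdSeNP 1 or without SeNP 1 (log2 fold changes of 0.991 and 0.980 in edgeR refits). Glutathione S-transferase F11 (LOC111880263) fell and averaged 49.6 ± 3.83 FPKM in CdSeNP leaves and 106 ± 5.63 FPKM in SeNP leaves. SULFUR DEFICIENCY-INDUCED 1 (LOC111885583), which low sulfur raises in Arabidopsis, averaged 2.71 ± 0.598 FPKM in CdSeNP leaves and 5.42 ± 0.324 FPKM in SeNP leaves, and its call ended without CdSeNP 3 or without SeNP 2 (log2 fold changes of -0.903 and -0.982 in edgeR refits). Heat shock factors and chaperones were higher at all 6, with heat stress factor A-4a (LOC111880674) at 46 ± 4.07 FPKM in CdSeNP leaves against 15.8 ± 1.16 in SeNP leaves and dnaJ 11 (LOC111888104) at 29.5 ± 1.54 FPKM in CdSeNP leaves against 5.1 ± 0.682 in SeNP leaves. Nitrate reductase (LOC111902813) averaged 1.2 ± 0.173 FPKM in CdSeNP leaves and 0.254 ± 0.155 FPKM in SeNP leaves, and glutamate dehydrogenase B (LOC111893255) averaged 109 ± 7.15 FPKM in CdSeNP leaves and 49.6 ± 2.77 FPKM in SeNP leaves. Phosphate transporter PHO1 homolog 9 (LOC111893951) averaged 9.83 ± 0.654 FPKM in CdSeNP leaves and 4.7 ± 0.534 FPKM in SeNP leaves, a call that ended without CdSeNP 1 or without SeNP 2 (log2 fold changes of 0.984 and 0.952 in edgeR refits), and phosphate transporter 1-4 (LOC111881178) averaged 1.18 ± 0.265 FPKM in CdSeNP leaves and 0.419 ± 0.148 FPKM in SeNP leaves. Of 5 sugar and starch genes 4 were higher, and the call of the lower one ended without CdSeNP 1 or SeNP 3. The higher ones include trehalose-phosphate phosphatase D (LOC111899324) at 25.3 ± 2.01 FPKM in CdSeNP leaves against 6.39 ± 1.04 in SeNP leaves, galactinol synthase 2 (LOC111920377) at 7.01 ± 0.617 FPKM in CdSeNP leaves against 3.06 ± 0.36 in SeNP leaves and isoamylase SU1 (LOC111897178) at 1.08 ± 0.339 FPKM in CdSeNP leaves against 0.17 ± 0.112 in SeNP leaves. Ribosomal proteins were higher at all 6, and 60S L10 (LOC111886670) averaged 133 ± 11.2 FPKM in CdSeNP leaves and 27.9 ± 3.12 FPKM in SeNP leaves. The list includes 4 loci that the authors added, all described as the acidic protein P2. Of these, the locus on chromosome 3 between 51472961 and 51473946 had 48.5, 40.7 and 40.6 FPKM in CdSeNP libraries, against 12.9, 12.3 and 14.4 FPKM in SeNP libraries, and the locus between 51502259 and 51503257 averaged 15.4 ± 1.87 FPKM in CdSeNP leaves and 4.81 ± 1.11 FPKM in SeNP leaves.

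Markers of particular leaf cells were few, and their counts of higher genes stand beside 83.8% of all called genes. Of 5 called genes of epidermis and cuticle 4 were higher, a count that was 2 without CdSeNP 3, without SeNP 1 and with DESeq2. They include glycerol-3-phosphate acyltransferase 3 (LOC111902070) at 2.84 ± 0.182 FPKM in CdSeNP leaves against 0.859 ± 0.183 in SeNP leaves and a GDSL esterase (LOC111879128) at 1.01 ± 0.376 FPKM in CdSeNP leaves against 0.378 ± 0.165 in SeNP leaves, whose call ended without CdSeNP 2 (log2 fold change of 1.060 and adjusted p = 0.12 in an edgeR refit). ECERIFERUM 26 (LOC111905151), of wax synthesis, fell and averaged 20.9 ± 2.42 FPKM in CdSeNP leaves and 50.6 ± 5.77 FPKM in SeNP leaves. The guard cell words matched SLAH2 (LOC111876517), an anion channel, at 5.27 ± 0.743 FPKM in CdSeNP leaves against 2.01 ± 0.244 in SeNP leaves, besides the patterning factor described above. The vascular words matched F-box proteins, VBF at LOC111884244 (273 ± 19.6 FPKM in CdSeNP leaves against 118 ± 9.34 in SeNP leaves) and LOC111884246 (219 ± 21.9 FPKM in CdSeNP leaves against 94.6 ± 8.41 in SeNP leaves) besides PP2-B15, so that list holds no defining gene of xylem or phloem. No called gene matched the words of the cell division list. Outside those words, AUGMIN subunit 6 (LOC128132225), part of a complex that builds spindle microtubules, fell and averaged 0.121 ± 0.0227 FPKM in CdSeNP leaves and 2.42 ± 0.519 FPKM in SeNP leaves. The cyclin-dependent kinase inhibitor SMR6 (LOC111882390) averaged 4.24 ± 0.358 FPKM in CdSeNP leaves and 1.99 ± 0.259 FPKM in SeNP leaves, and its call ended without CdSeNP 3, SeNP 1 or SeNP 3 (log2 fold changes of 0.971, 0.960 and 0.982 in edgeR refits). The words for clock genes and root markers matched no called gene either, and with values for called genes alone their levels were not analysed here.

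Adding cadmium without nanoparticles, as Cd over CK, used none of the libraries above, so the 2 lists of called genes can be set side by side. The authors' deposited table for Cd over CK lists 1119 of 23049 genes tested (4.85%), with 799 higher (3.47%) and 320 lower (1.39%). A total of 154 genes were on both lists, which is 17.4% of the list with nanoparticles and 13.8% of the list without. Their direction was the same at 135 and opposite at 19. Of the 143 genes lower with nanoparticles, 67 (46.9%) were also called without them, and of the 741 higher genes 87 (11.7%) were. The photosynthesis list had 27 called genes with nanoparticles and 29 without, with 24 on both and all of them lower. The iron deficiency list had 9 and 9, with 7 on both, all of these higher. The cell division list had 0 called genes with nanoparticles and 136 without, all higher in Cd leaves. That difference was not tested, since those genes have no values here in SeNP leaves unless another comparison called them.

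Whether cadmium acted differently with and without nanoparticles was examined through an interaction term (edgeR, quasi-likelihood). It covered the 575 genes with values in all 12 libraries, of which 425 (73.9%) differed at an adjusted p under 0.05. These genes were all called in some comparison, so that share does not describe leaf genes at large. The test covered 349 of the 884 genes, and 234 of them differed. Of 91 genes lower in CdSeNP leaves that were tested 37 differed, and of 258 higher ones 197 did, 193 of them with a more positive cadmium effect in the presence of nanoparticles. That direction is favoured by the choice of the genes, which were listed for being higher in CdSeNP leaves in the same libraries. CK 2 stood apart from the other untreated libraries over the 575 genes, at a chi-square per degree of freedom of 47.5 and 40.4 from CK 1 and CK 3, against 15.1 between those. Without it 444 of the 575 genes differed.

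Some iron and photosynthesis genes differed in this test. The iron deficiency list has 7 genes in this test, but both ORG2 genes with no reads in SeNP leaves had none in CK leaves either, so that no difference of folds can be given for them. Of the other 5 genes 0 differed with edgeR, 1 had an unadjusted p under 0.05, and 0 differed with DESeq2. Without CK 2 the count was 1 of 5. Oligopeptide transporter 3 (LOC111920790) had a cadmium effect of 3.01 on the log2 scale with nanoparticles and of 2.75 without (edgeR, adjusted p = 0.19 for the difference). Among the 8 iron storage and iron-sulfur genes 3 differed, and 4 did without CK 2. These were both ferritin-4 genes, with a larger fall in the presence of nanoparticles, and the vacuolar iron transporter homolog 4 at LOC111899502, with a smaller one. At LOC111919692 the cadmium effect was -4.15 with and -3.17 without nanoparticles (edgeR, adjusted p = 1.1e-03), with levels of 5.84 ± 0.549 FPKM in Cd leaves and 48.5 ± 9.93 FPKM in CK leaves. At LOC111879873 it was -1.74 with and -1.02 without (edgeR, adjusted p = 2.1e-04), and at LOC111899502 it was -2.15 and -3.96 in the same order (edgeR, adjusted p = 0.024). Among photosynthesis genes 10 of 25 differed (40%, or 7 with DESeq2 and 11 without CK 2), close to the 40.7% of all tested genes that were lower in CdSeNP leaves, and at 9 of the 10 the fall was larger with nanoparticles. The median effect over the 25 was -1.53 with and -1.33 without nanoparticles. LHCII type 1 at LOC111895045 had effects of -3.24 and -3.10 in that order (edgeR, adjusted p = 0.45 for the difference).

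Nearly all tested copper, calcium, hormone and defence genes had different cadmium effects with and without nanoparticles. All 7 tested copper proteins, all 3 tested superoxide genes, all 10 genes of the ethylene list, all 4 jasmonate genes, all 3 genes of the abscisic acid list, all 7 calcium genes and 15 of 16 receptor genes differed, against 73.9% of all genes tested and 76.4% of the tested genes that were higher in CdSeNP leaves. A gene not called in Cd over CK was tested only if a group with nanoparticles was called different from one without. Among genes called with nanoparticles, Cd over CK called 0 calcium, jasmonate, abscisic acid and superoxide genes, 1 ethylene, 1 copper and 5 receptor ones. By contrast it called 7 iron deficiency, 8 iron storage and 24 photosynthesis genes among them. That entry favours a difference in the former lists, so shares of the lists cannot be compared. In full, Cd over CK called 5 calcium genes (2 higher, 3 lower) and 4 jasmonate genes (1 higher, 3 lower). It also called 5 abscisic acid genes (all lower), 16 ethylene genes (6 higher, 10 lower) and 47 receptor genes (16 higher, 31 lower). Copper proteins numbered 4 (3 higher, 1 lower) and superoxide genes 0. In the calcium list the median cadmium effect was 2.25 with nanoparticles and -0.49 without, and in the ethylene list it was 2.01 and -0.11. CML38 (LOC111877562) had 25.6, 21.6 and 22.7 FPKM in the Cd libraries and 36.2, 16.6 and 37.1 FPKM in CK 1 to CK 3, with CK 2 the low one. Its cadmium effect was 2.25 on the log2 scale with nanoparticles and -0.49 without (edgeR, adjusted p = 5.5e-05 for the difference). Rab18 (LOC111913327) averaged 1.1 ± 0.148 FPKM in Cd leaves and 1.0 ± 0.378 FPKM in CK leaves, below its 5.43 ± 1.21 FPKM in SeNP leaves, and its effects were 3.40 and 0.02 in the same order (edgeR, adjusted p = 4.0e-05 for the difference). The SeNP mean was the lowest of the 4 groups at 7 of 7 calcium genes, 9 of 10 genes of the ethylene list and 4 of 4 jasmonate genes, and the CdSeNP mean was the highest at 7, 8 and 4 of them. Among all 258 tested genes that were higher in CdSeNP leaves, the SeNP mean was the lowest at 220 and the CdSeNP mean the highest at 156. All these genes were selected for being higher in CdSeNP than in SeNP leaves, which fixes part of that order.

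**Figure D5:**
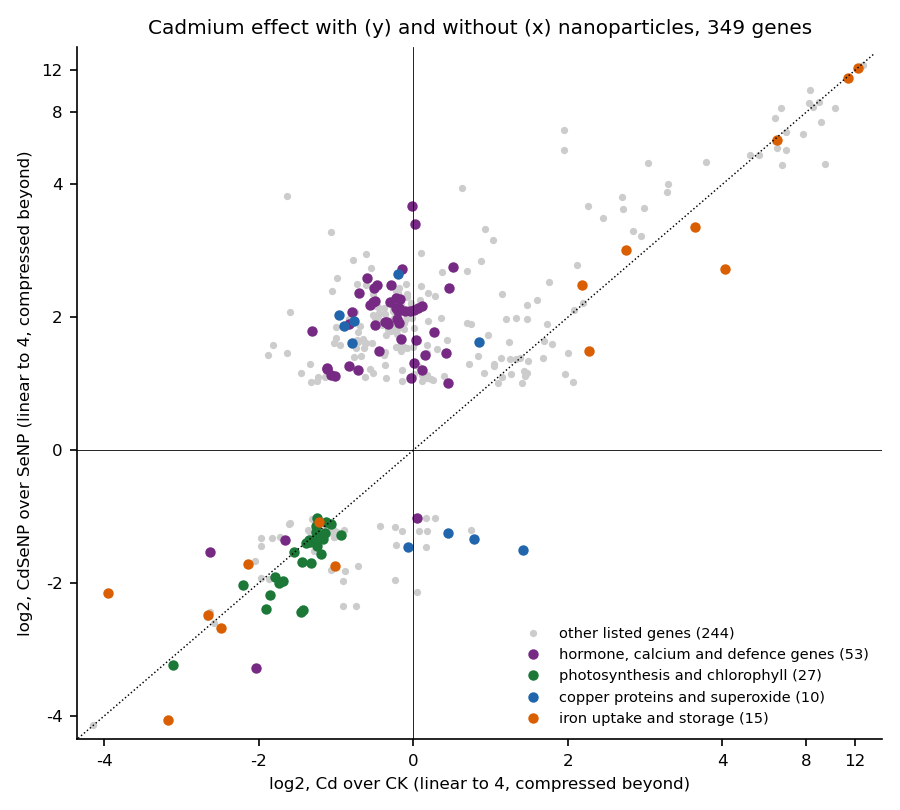
Cadmium effect on the log2 scale with nanoparticles (CdSeNP over SeNP, vertical) against that without (Cd over CK, horizontal) for the 349 called genes with values in all 12 libraries, both from edgeR, on axes that are linear to 4 and compressed beyond. The dotted line marks equal effects, and the empty band around 0 on the vertical axis comes from the 2-fold threshold for being listed. Oligopeptide transporter 3 and LHCII type 1 at LOC111895045 lie near the line, and ferritin-4 at LOC111919692 and the vacuolar iron transporter homolog 4 at LOC111899502 lie off it. Most calcium, hormone and defence genes gather near 0 on the horizontal axis and near 2 on the vertical one.

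Called genes were also neighbours on the chromosomes. Of 760 called protein-coding genes placed in the RefSeq order (Lsat_Salinas_v11), 132 (17.4%) had a called gene next to them, in 73 adjacent pairs, and both members moved the same way in 68 pairs. Of the genes tested 3.87% were called, and 83.8% of the called genes were higher, so most pairs would share a direction in any case. The counts that random placement would give were not computed. Runs of 3 or more called neighbours numbered 9. They include 4 LHCII type 1 genes on chromosome 4, all lower, 3 genes of chlorophyll a-b binding protein 5 on chromosome 9, all lower, 6 cupredoxins in a pair of runs on chromosome 5, 4 CYP72A219 genes on chromosome 3 and 3 xyloglucan endotransglucosylase genes on chromosome 8, all higher. On chromosome 7, between 178608119 and 178761292, 4 heavy metal-associated isoprenylated plant proteins and 2 RGA5 genes stood in 1 run and all were higher. Similar copies can share reads, so the members of a run are not separate evidence.

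Of the 884 loci 86 were added by the authors to the RefSeq genes, 71 of them higher and 15 lower. A cluster of 12 such loci without any description lies on chromosome 5 between 238238514 and 238707909, and all 12 were higher in CdSeNP leaves. The most abundant, between 238238514 and 238239246, had 108, 132 and 122 FPKM in the CdSeNP libraries, against 0.16, 0.333 and 0.234 FPKM in the SeNP libraries. Its neighbour, between 238251525 and 238252082, had 60.7, 71.1 and 66.6 FPKM in CdSeNP libraries, against 1.26, 1.19 and 1.31 FPKM in SeNP libraries.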

How the data were processed

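Poly(A) RNA from whole lettuce leaves was sequenced in 12 libraries, 3 in each of 4 groups. Per the submitters' processing notes, the tools were DESeq2 1.34.0, StringTie 2.2.1, HISAT2 2.2.1, fastp 0.23.0 and Trimmomatic, with neither role nor order stated. For the counting tool, strand setting and genome build, the sources used here give no name. The start and end of 798 genes are the same as in RefSeq's Lsat_Salinas_v11 assembly, so coordinates are in that assembly. Per the file headers, each table of a comparison that the authors deposited holds read counts and FPKM per library, a log2 fold change and p-values. It lists only genes past the authors' thresholds, a log2 fold change beyond 1 in either direction at an adjusted p-value under 0.05, so the deposited results are the main ones here.

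The listed genes were refitted with edgeR 4.0.16 (quasi-likelihood) and DESeq2 1.42.0 in R 4.3.3, on the deposited counts with size factors recovered from the tables. An interaction of cadmium with nanoparticles was fitted with edgeR over genes with counts in all 12 libraries. Summaries and plots used Python 3.11.15. Adjusted p-values are Benjamini-Hochberg values. On simulated counts for CdSeNP over SeNP (884 genes), edgeR recovered 93% of changes of 1 and 100% of changes of 2 on the log2 scale, DESeq2 80% and 99%. For the interaction (575 genes) edgeR recovered 62% and 99%. The rates for CdSeNP over SeNP leave out the 2-fold threshold, so they do not give how often such changes would be called.

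Replicates are described as biological in the series text. The labels put every library in 1 batch. Genes were named by rule: the 8 largest increases and decreases with a description, no overlap between groups and a higher mean of at least 5 FPKM, plus as many as 3 genes per list, taken by adjusted p. That gave 105 genes, and 41 others were chosen after their values were seen. The genes and lists were chosen with earlier results of these data known. Fold bounds use a floor of 3 counts and cover counting error only. An exact permutation test of 3 against 3 libraries cannot give a p below 0.1 and was not run. Alternatives changed the test, the scaling, the thresholds, the filters on low values, the replicate block and the libraries used.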

Additional observations from a re-analysis of the deposited data

Results flagged for a closer look

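These 23 named genes had a cadmium effect (log2) that differed between leaves with nanoparticles (CdSeNP over SeNP) and without (Cd over CK), at an edgeR interaction adjusted p between 9.7e-08 and 2.4e-02. Of 89 named genes in that test 59 differed. The 23 are those whose effects had opposite signs and those singled out after their values were seen. Each difference below is the effect with minus that without, and the 2 effects follow in the same order. CK 2 stood apart from the other untreated libraries, so the difference without it is given too.

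At 11 of them the 2 effects had opposite signs, each at an adjusted p under 0.05. At copper transporter 5 (LOC111893192) the difference was 1.81, with effects of 1.43 and -0.38, and it was 1.87 without CK 2. Superoxide dismutase [Cu-Zn] (LOC111882980) had a difference of -1.69, from effects of -1.24 and 0.45, and of -1.73 without CK 2. The effects at polyphenol oxidase I (LOC111905063) were -1.33 and 0.78, a difference of -2.12, or of -2.31 without CK 2. At glycerol-3-phosphate acyltransferase 3 (LOC111902070) the difference was 2.68, with effects of 1.68 and -1.0, and it was 2.96 without CK 2. Cinnamoyl-CoA reductase 1 (LOC111889537) had a difference of 2.50, from effects of 1.78 and -0.72, and of 2.71 without CK 2. The effects at 60S ribosomal protein L10 (LOC111886670) were 2.204 and -0.56, a difference of 2.77, or of 3.01 without CK 2. At mitogen-activated protein kinase kinase kinase 20 (LOC111879169) the difference was 2.87, with effects of 2.07 and -0.80, and it was 3.17 without CK 2. Syntaxin-121 (LOC111898570) had a difference of 3.45, from effects of 2.40 and -1.05, and of 3.77 without CK 2. The effects at zinc transporter 1 (LOC111880346) were 2.60 and -0.98, a difference of 3.58, or of 3.64 without CK 2. At basic blue protein (LOC111904155) the difference was -2.93, with effects of -1.50 and 1.42, and it was -3.41 without CK 2. Cucumber peeling cupredoxin (LOC111881903) had a difference of 2.72, from effects of 1.95 and -0.77, and of 2.97 without CK 2.

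At the other 12 the effects had the same sign, or the effect without nanoparticles had an adjusted p over 0.05. At ferritin-4 (LOC111919692) the difference was -0.98, with effects of -4.15 and -3.17, and it was -1.14 without CK 2. Chlorophyll a-b binding protein of LHCII type 1 (LOC111921754) had a difference of -0.48, from effects of -2.39 and -1.91, and of -0.39 without CK 2. The effects at cytochrome P450 94B3 (LOC111920155) were 3.68 and -0.02, a difference of 3.70, or of 3.98 without CK 2. At ferritin-4 (LOC111879873) the difference was -0.72, with effects of -1.74 and -1.02, and it was -0.72 without CK 2. Superoxide dismutase [Fe] (LOC111905867) had a difference of 2.84, from effects of 2.65 and -0.19, and of 2.86 without CK 2. The effects at xyloglucan endotransglucosylase/hydrolase protein 23 (LOC111909622) were 2.15 and -0.46, a difference of 2.61, or of 2.92 without CK 2. At ethylene-responsive transcription factor ERF109 (LOC111903160) the difference was 2.05, with effects of 2.17 and 0.11, and it was 2.37 without CK 2. Protein TIFY 10A (LOC111882352) had a difference of 2.10, from effects of 2.11 and 0.01, and of 2.33 without CK 2. The effects at dehydrin Rab18 (LOC111913327) were 3.40 and 0.02, a difference of 3.38, or of 3.12 without CK 2. At WRKY transcription factor 31 (LOC111891013) the difference was 3.19, with effects of 2.59 and -0.59, and it was 3.501 without CK 2. Calcium-binding protein CML38 (LOC111877562) had a difference of 2.74, from effects of 2.25 and -0.49, and of 3.04 without CK 2. The effects at vacuolar iron transporter homolog 4 (LOC111899502) were -2.15 and -3.96, a difference of 1.81, or of 2.06 without CK 2. The cause of these differences was not tested.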

How the results depend on the processing

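The counts of 741 higher and 143 lower genes moved by more than 1.5 times under a single alternative, a log2 fold change of at least 2, which left 129 higher and 19 lower genes. Under the other settings they were 669 to 741 higher and 126 to 143 lower genes, and no result reversed. The edgeR refit gave 739 and 142, and the DESeq2 refit 699 and 133. edgeR made 881 and DESeq2 832 of the 884 deposited calls. Leaving out 1 library at a time gave 669 to 712 higher and 126 to 137 lower genes, and 712 of the 884 genes were called in all 6 of these fits. Library totals in place of size factors shifted fold changes by 0.0443 on the log2 scale and raised the share of higher calls to 85.2%. Replicate numbers did not pair the libraries: same-numbered libraries correlated at 0.091, -0.035 and 0.018 in their deviations from the group means. With the replicate block, 736 genes were higher, 141 were lower and 422 differed in the interaction. The interaction count of 425 was 418 with DESeq2, 426 with library totals, 372 at an adjusted p under 0.01, and 405 to 444 with 1 library left out. Of 735 counts of called genes per list and alternative, 72 moved by more than 1.5 times: 47 under the log2 limit of 2, 14 without 1 library and 11 under other settings. Of 146 named genes, 132 kept their call in every refit, scaling and filter on low values, apart from the log2 limit of 2. The tables hold called genes alone, so a gene that was not called has no value here and a list's uncalled members could not be counted.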
